A study of Mus musculus with 8 samples.

Results

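The cytochrome P450 genes of the mouse are described here over 8 bulk RNA sequencing libraries from 4 tissues. Members were all gene symbols in the deposited table that consist of Cyp, a family number, subfamily letters and a gene number, together with Cyp51. Pseudogene symbols ending in -ps were left out. The rule found 95 genes among 52195, in 17 families and 40 subfamilies, and all 95 are protein-coding in the annotation used. The libraries came from untreated C57BL/6 mice, a common inbred strain, aged 6 to 10 weeks and, by the study's methods, male C57BL/6J. Kidney, lung, liver and small intestine were excised, washed and ground whole, and each tissue has 2 libraries from separate mice. By the methods all 4 tissues were taken from each mouse, so that the tissue groups share animals, but which libraries of different tissues belong to the same mouse is not stated, and the tests treat the 8 libraries as independent. Every group is therefore a mixture of all cells of an organ, with no treated, mutant or female animals. By family number, 3 genes belong to family 1, 49 to family 2, 7 to family 3, 17 to family 4 and 19 to families 5 and above.

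Cytochromes P450 are haem-containing monooxygenases of the endoplasmic reticulum and the mitochondria, which insert an oxygen atom into a substrate with electrons supplied by a reductase. Families 1 to 3 mostly oxidize drugs, toxins and other foreign compounds, and family 4 hydroxylates fatty acids and eicosanoids. The higher families mostly act on sterols, bile acids, steroid hormones, vitamin D and retinoic acid. The liver is the main organ of P450 metabolism, while kidney, lung and gut epithelium each carry enzymes of their own, some of which activate toxins locally.

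Values are FPKM, fragments scaled to exon length in kilobases and to library size, so levels may be set beside each other between genes. They are given as library 1 and then library 2 of a tissue. Depth ranged from 9164187 to 21444675 reads, and 3 reads on 1 kb of exons correspond to an FPKM from 0.140 in kidney 1 to 0.327 in liver 1. Values below 3 reads are treated as not detectable, a floor that covers counting error only. The tissue labels were checked against marker genes. All 4 hepatocyte markers were called higher in liver, all 4 tubule markers in kidney, all 4 lung epithelium markers in lung and all 4 enterocyte markers in small intestine. Some markers were not confined to their tissue, since the hepatocyte marker Apob was also called higher in small intestine, at 48.9 and 60.9, and the enterocyte marker Vil1 in kidney, at 33.4 and 25.4. The summed FPKM of the hepatocyte markers was 44178 and 38954 in liver, 104.8 and 170.04 in kidney, 89.9 and 53.1 in lung, and 68.7 and 80.004 in small intestine. The small intestine libraries also held 6 pancreatic acinar markers, at a summed FPKM of 2549 and 1182. Among these, Cela1 was also called higher in kidney, at 76.5 and 74.2. Whether such values come from admixture of cells, and what part that has in low P450 values, was not tested.

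Liver held the highest summed level of P450 transcripts. The FPKM of the 95 genes added up to 10443 and 9315 in liver, 3099 and 2772 in kidney, 2209 and 2840 in small intestine, and 1416 and 1515 in lung. Both liver libraries stood above all others, and both lung libraries were lowest. In bulk tissue, fewer cells of a type and less RNA per cell cannot be told apart. A mean FPKM of 1 or more was reached by 56 members in liver, 34 in small intestine, 32 in kidney and 32 in lung, and a mean of 100 or more by 24, 7, 6 and 3 members in the same order. The sum was spread most evenly in liver, where the 5 highest genes made up 50.2% of it, against 59.1% in small intestine, 77.2% in kidney and 86.8% in lung.

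**Figure D1:**
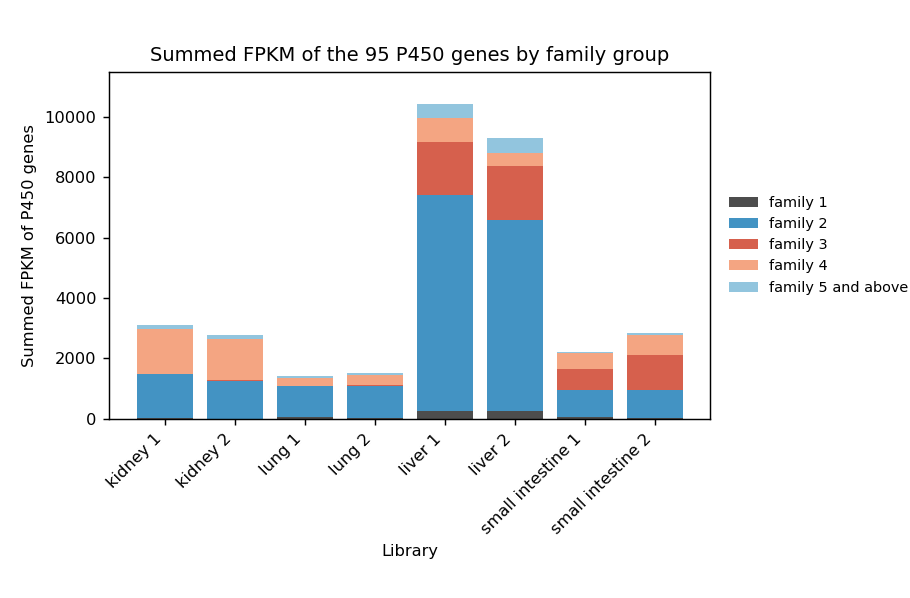
Summed FPKM of the 95 P450 genes (vertical axis) in each of the 8 libraries (horizontal axis), with the family groups stacked by colour. Family 2 makes up most of the liver and lung bars, family 4 is about as large as family 2 in kidney, and family 3 is visible in liver and small intestine alone.

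Family 2 contributed 6742 ± 595 to the liver sum, 1372 ± 158 to kidney, 1053 ± 41.2 to lung and 915 ± 21.8 to small intestine (mean FPKM ± SD, n = 2). Family 3 was divided between liver, at 1771 ± 38.5, and small intestine, at 921 ± 325, and was at 5.31 ± 3.03 in lung and 2.12 ± 1.41 in kidney (SD, n = 2). Family 4 was highest in kidney, at 1422 ± 62.3, and amounted to 615 ± 274 in liver, 591 ± 88.1 in small intestine and 318 ± 51.4 in lung (SD, n = 2). These sums leave out Cyp4a12a and Cyp4a12b, whose symbols fall outside the rule. Cyp4a12a was at 150 and 133 in liver and 28.0 and 32.2 in kidney, and Cyp4a12b at 68.9 and 47.0 and at 7.46 and 6.71. With the values as deposited, the sums of family 4 in liver and small intestine overlapped between libraries, while kidney lay above both. Median-of-ratios scaling, used below, divides values by 1.03 and 0.719 in kidney and by 0.552 and 0.627 in liver. Liver 1 then no longer lies below kidney 1, so that this order depends on the scaling. Families 5 and above amounted to 493 ± 33.9 in liver, 136 ± 10.0 in kidney, 61.1 ± 1.13 in lung and 61.2 ± 23.6 in small intestine (SD, n = 2), and family 1 to 259 ± 0.765, 3.38 ± 1.67, 27.9 ± 20.9 and 36.03 ± 12.6 in the same order.

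For the tests, each gene was compared on the scale of log2(FPKM + 1) with limma and Benjamini-Hochberg adjustment over the 16328 genes that reached an FPKM of 1 in 2 libraries or more. A gene was called at an adjusted p under 0.05 and a log2 difference over 1 in size. This filter kept 68 of the 95 members, and the other 27 were not tested. Because a member expressed in 1 tissue alone could pass only through that tissue, the counts that follow describe the members tested and are read beside the same share of all genes.

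Against the mean of the other 3 tissues, 41 members were called higher and 12 lower in liver, where 6.56% of all genes tested were higher and 32.7% lower. In kidney 14 were higher and 36 lower, beside 8.65% and 16.1% of all genes. In small intestine 16 were higher and 33 lower, beside 13.7% and 11.3%. In lung 9 were higher and 45 lower, beside 40.7% and 8.26% of all genes. The median log2 difference of the members was 2.80 in liver, -0.88 in small intestine, -1.07 in kidney and -1.77 in lung, and over all genes tested it was -0.72, -0.01, -0.34 and 0.82 in the same order. The large shift of all genes in lung depends on the scaling. After median-of-ratios scaling, under which the medians of all genes lay between -0.10 and -0.05, 51 members were higher in liver, 14 in kidney, 16 in small intestine and 5 in lung, beside 13.3%, 12.3%, 13.7% and 15.1% of all genes. Under that scaling 12 members were lower in liver, 35 in kidney, 34 in small intestine and 50 in lung, beside 14.6%, 12.7%, 12.2% and 16.9% of all genes.

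A gene is called led by a tissue here when it was higher there than in each of the other 3 by separate contrasts. Of the 68 members tested, 33 were led by liver, 9 by kidney, 8 by small intestine and 4 by lung, and 14 by none. Among all genes tested, 3.74% were led by liver, 3.68% by kidney, 5.95% by small intestine and 21.1% by lung. The share of members led by liver was 48.5%, and that led by lung, at 5.88%, lay below the share of all genes. All 33 genes led by liver were again led by liver after median-of-ratios scaling, and so were 7 of the 9 genes of kidney and 7 of the 8 of small intestine for their own tissue, while 3 of the 4 genes of lung were led by none and Cyp4f39 was not tested. Under that scaling 36 members were led by liver, 7 by kidney, 8 by small intestine and 0 by lung, beside 6.86%, 5.11%, 6.97% and 8.94% of all genes.

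**Figure D2:**
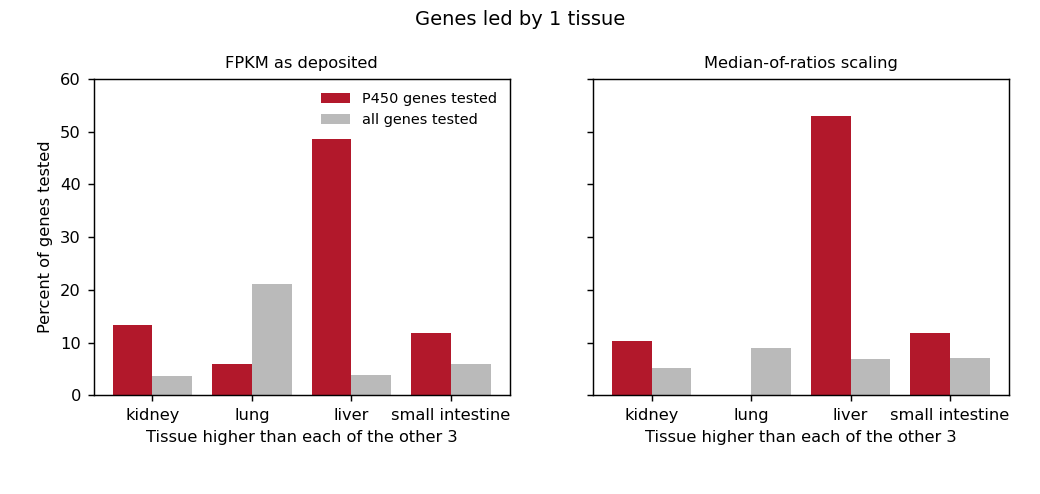
Percent of genes (vertical axis) that were higher in a tissue than in each of the other 3, for the P450 genes tested (red) and all genes tested (grey), with FPKM as deposited (left) and after median-of-ratios scaling (right). The liver bars of the P450 genes reach 48.5% and 52.9%, and the lung bar of the P450 genes falls from 5.88% to 0.

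**Figure D3:**
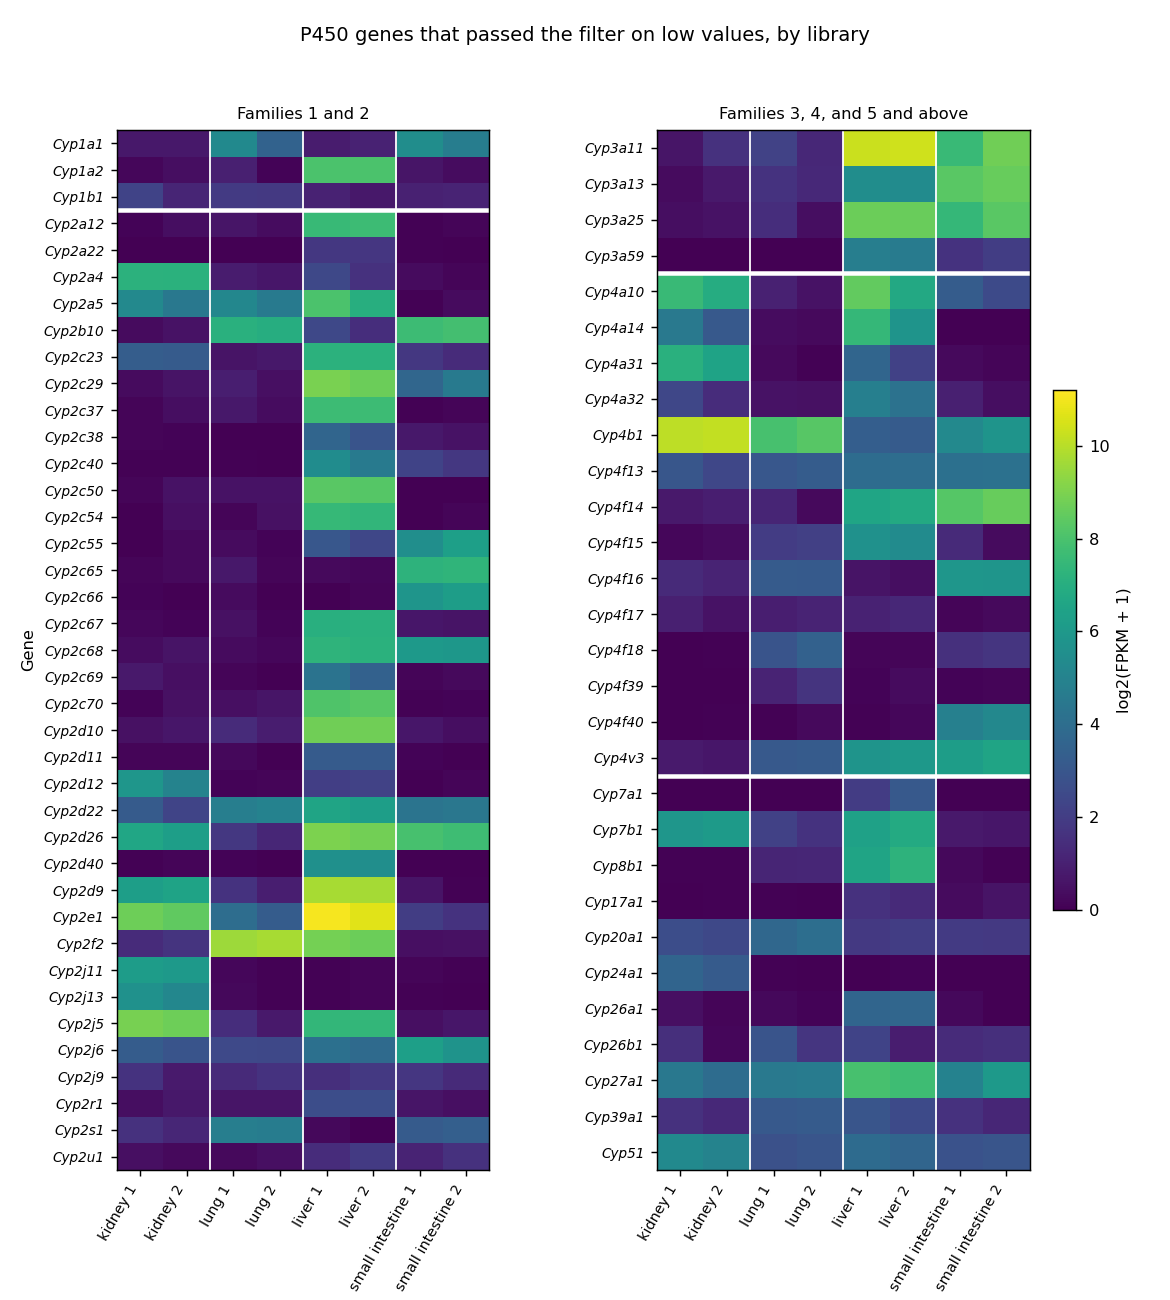
Level of each of the 68 members tested (rows) in the 8 libraries (columns), coloured by log2(FPKM + 1) from dark (0) to bright, with white lines between families and between tissues. Most rows are bright in the liver columns, with separate blocks for kidney (Cyp2j11, Cyp2j13) and small intestine (Cyp2c65, Cyp2c66), while Cyp2f2 is bright in lung and liver and Cyp4b1 in kidney and lung.

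The 3 genes of family 1 encode enzymes that oxidize polycyclic aromatic compounds and are inducible through the aryl hydrocarbon receptor. They lay in different tissues. Cyp1a2, the caffeine-oxidizing enzyme of liver, was at 257 and 256 in liver and between 0.0799 and 0.967 in the other 6 libraries. Its log2 difference in liver was 7.56 (standard error 0.23, limma adjusted p = 2.18e-07). Its neighbour on chromosome 9, Cyp1a1, was at 43.4 and 25.7 in small intestine, 39.0 and 10.5 in lung, and at most 1.11 in liver and kidney. The gene was thus low where Cyp1a2 was high. It was called higher in small intestine and in lung than in the mean of the others, with log2 differences of 3.06 and 2.15, but the contrast of lung with small intestine was -0.68 (limma adjusted p = 0.286), and their libraries overlapped. The lung libraries of Cyp1a1 differed by 3.72 times, the largest ratio between replicates among members with a mean of at least 5, and without lung 1 the gene was led by small intestine. Cyp1b1, known from tissues outside the liver, was between 0.661 and 3.76 in every library and was led by no tissue.

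A stretch of chromosome 7 from 25802475 to 27158668 (GRCm38) held 13 members of subfamilies 2a, 2b, 2f, 2g, 2s and 2t, of which 7 were tested, with 3 led by liver, 1 by kidney, 1 by lung and 2 by none. Cyp2a5, which oxidizes coumarin and nicotine, was at 256 and 127 in liver, 37.5 and 21.3 in kidney, 35.5 and 23.1 in lung, and at most 0.256 in small intestine. Cyp2a4, a steroid hydroxylase, was at 147 and 143 in kidney and 4.33 and 2.06 in liver, with a log2 difference in kidney of 6.18 (standard error 0.22, limma adjusted p = 9.57e-07). Liver and kidney thus stood in opposite order in these related genes, while small intestine was lowest for both. Of the 31-base words of Cyp2a4, 55.9% also occur in Cyp2a5, so that some reads of one may have been counted on the other, and how such reads were counted is not given in the sources used here. Further along, Cyp2a12 was at 185 and 203 in liver and at most 0.533 elsewhere.

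Cyp2b10, a phenobarbital-inducible enzyme, was at 202 and 227 in small intestine, 136 and 125 in lung, 4.44 and 1.79 in liver, and at most 0.465 in kidney. Small intestine and lung did not overlap, but the contrast of lung with small intestine was -0.71 (limma adjusted p = 0.064), so that neither led with the values as deposited. After median-of-ratios scaling the gene was led by small intestine. Cyp2f2, which oxidizes naphthalene in club cells, was at 761 and 852 in lung and 458 and 405 in liver, the largest value of any member in lung. It was higher in lung than in the mean of the others by 6.07 (standard error 0.13, limma adjusted p = 1.85e-07), while lung exceeded liver by 0.90 (standard error 0.16), below the size required for a call. With the same sum in each library, Cyp2f2 was led by lung, but by no tissue after median-of-ratios scaling. That scaling divides values by 1.82 and 1.90 in lung and by 0.552 and 0.627 in liver. Both liver libraries then lie above both lung libraries. The summed FPKM of 3 other club cell markers was 45838 and 61057 in lung and 59.0 and 61.5 in liver. Cyp2s1, which is expressed in epithelia, was at 26.6 and 25.1 in lung, 8.16 and 9.34 in small intestine, and at most 2.01 in kidney and 0.177 in liver. It was led by lung, but by no tissue after median-of-ratios scaling.

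The Cyp2c genes, whose enzymes oxidize drugs and arachidonic acid, were split by tissue along their chromosome. Between 39007019 and 40187333 on chromosome 19 lie 14 Cyp2c genes, and the 3 at one end, Cyp2c55, Cyp2c65 and Cyp2c66, were led by small intestine. Of the 11 that follow, 10 were led by liver, and Cyp2c39 was not tested. Cyp2c65 was at 149 and 160.3 in small intestine and at most 0.637 elsewhere, with a log2 difference of 6.98 (standard error 0.18, limma adjusted p = 1.91e-07). Cyp2c66 was at 56.9 and 74.9 in small intestine and at most 0.263 elsewhere, and Cyp2c55 at 44.8 and 79.9 with 7.11 and 4.27 in liver. None of the small intestine libraries of these genes overlapped with another tissue. At the liver end, Cyp2c29 was at 488 and 415, Cyp2c50 at 319 and 303, Cyp2c70 at 277 and 309, and Cyp2c37 at 203 and 204 in liver. Cyp2c70, which makes muricholic acids, was at most 0.569 elsewhere, with a log2 difference in liver of 7.88 (standard error 0.16, limma adjusted p = 6.91e-08).

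Some liver genes of this stretch were also found in small intestine. For Cyp2c68 the values were 156 and 143 in liver, with 63.8 and 59.8 in small intestine. For Cyp2c29 they were 12.01 and 23.3 in small intestine. Cyp2c68 was led by liver, with a contrast of 1.26 against small intestine (standard error 0.15, limma adjusted p = 0.000297). Sequence is shared widely here, with 72.6% of the 31-base words of Cyp2c40, 67.6% of Cyp2c67, 64.9% of Cyp2c69 and 62.0% of Cyp2c68 found in other genes, but none of those of Cyp2c70 and 3.41% of those of Cyp2c55. For Cyp2c65 and Cyp2c66 the share was 35.3% and 33.3%, mostly with each other. Cyp2c23, an arachidonic acid epoxygenase outside this stretch, was at 146 and 143 in liver and 8.73 and 8.16 in kidney, and shares no such word.

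**Figure D4:**
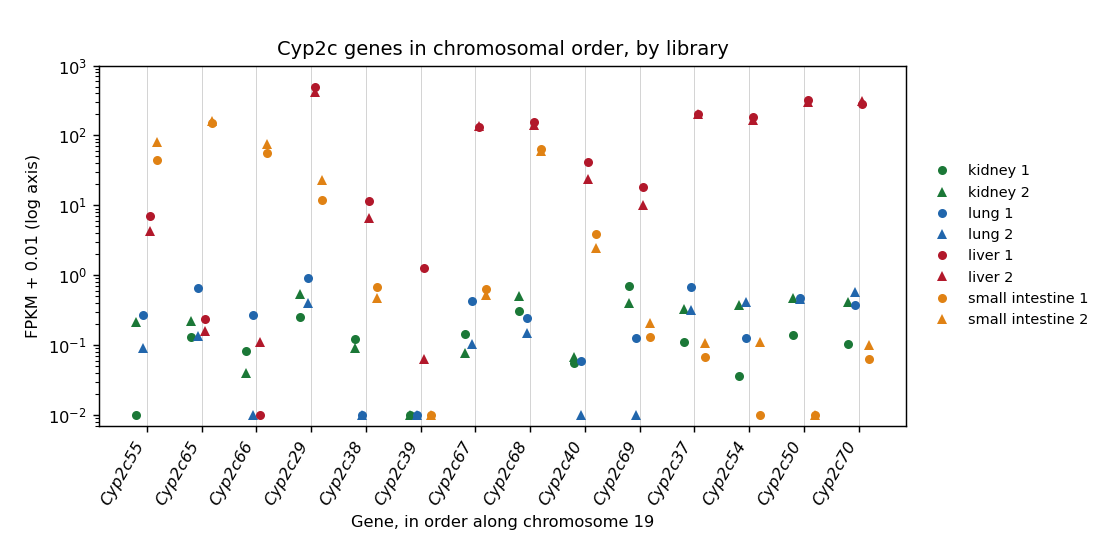
FPKM plus 0.01 on a log axis (vertical) of the 14 Cyp2c genes in their order along chromosome 19 (horizontal), with circles for library 1 and triangles for library 2 and a colour for each tissue. Small intestine points are highest for the 3 genes on the left, liver points for the genes from Cyp2c29 onwards.

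The promoters of these neighbours can be set beside each other. RefSeq entries (GRCm38.p6) with 250 bases before and 50 after the start were given for 74 of the 95 members, and 8 short motifs were searched on both strands. The letters CAAAGTCCA, a form of the site of HNF4, a nuclear receptor of liver, kidney and gut, occurred in 9 of the 74 (12.2%), against 0.555% of the 27025 promoters of all genes. The 9 were Cyp2c40, Cyp2c65, Cyp2c67, Cyp2c68, Cyp2c69, Cyp2c70, Cyp3a11, Cyp3a16 and Cyp8b1, and several of these share ancestry and sequence. They comprise 7 of the 27 genes led by liver with an entry, 1 of the 8 of small intestine, 0 of the 6 of kidney and 0 of the 4 of lung. TATAAA occurred in 41.9% of members and 15.7% of all promoters. It was found in 20 of the 27 genes led by liver, 3 of the 8 of small intestine, 2 of the 6 of kidney and 0 of the 4 of lung. The HNF1 motif occurred in 2 of the 74 members (2.7%) and 0.47% of all promoters, the CEBP letters TTGCNCAA in 5 (6.76%) and 3.37%, and the FOXA letters TGTTTAC in 7 (9.46%) and 4.05%. The D-box letters TTATGTAA occurred in 0 members and 1.11% of promoters, the dioxin response core GCGTG in 17 (23.0%) and 35.2%, and the GATA letters GATAAG in 11 (14.9%) and 8.58%. A match of letters is no evidence that a factor binds. The 150 bases before the start are shown for 2 neighbours led by small intestine, 2 genes of the same stretch led by liver, and the liver genes Cyp3a11 and Cyp8b1, with CAAAGTCCA and TATAAA in capitals on whichever strand they stand.
Cyp2c65 (chr19:39060856-39061005, plus strand): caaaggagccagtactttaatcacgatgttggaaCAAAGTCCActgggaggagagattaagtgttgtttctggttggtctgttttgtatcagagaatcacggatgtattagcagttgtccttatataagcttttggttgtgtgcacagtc
Cyp2c66 (chr19:39113748-39113897, plus strand): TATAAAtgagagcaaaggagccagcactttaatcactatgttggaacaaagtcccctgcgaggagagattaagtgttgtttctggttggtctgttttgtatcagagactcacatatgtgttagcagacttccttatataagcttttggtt
Cyp2c67 (chr19:39649043-39649192, minus strand): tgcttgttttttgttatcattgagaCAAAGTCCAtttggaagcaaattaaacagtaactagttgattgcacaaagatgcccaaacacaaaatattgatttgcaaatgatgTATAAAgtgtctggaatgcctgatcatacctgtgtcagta
Cyp2c70 (chr19:40187287-40187436, minus strand): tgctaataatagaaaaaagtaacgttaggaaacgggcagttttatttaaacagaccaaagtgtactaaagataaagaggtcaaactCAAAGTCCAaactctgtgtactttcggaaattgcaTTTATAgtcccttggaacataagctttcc
Cyp3a11 (chr5:145879855-145880004, minus strand): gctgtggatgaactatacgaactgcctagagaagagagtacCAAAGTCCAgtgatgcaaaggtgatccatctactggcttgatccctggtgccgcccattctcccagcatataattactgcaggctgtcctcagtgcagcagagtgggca
Cyp8b1 (chr9:121916306-121916455, minus strand): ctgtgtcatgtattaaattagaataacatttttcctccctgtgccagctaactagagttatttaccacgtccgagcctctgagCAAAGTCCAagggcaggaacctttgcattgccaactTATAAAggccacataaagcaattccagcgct

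The HNF4 letters began 116 bases before the start in Cyp2c65 and between 64 and 125 bases before it in the other 4 windows that hold them. Laid together without gaps, the full entries of Cyp2c65 and Cyp2c66, with 250 bases before and 50 after the start, were identical at 198 of 288 bases (68.8%). This share includes bases outside the stretches shown, which were not compared alone. At the place of the HNF4 letters of Cyp2c65, Cyp2c66 differs by A9C, counted from 1 at the first base of CAAAGTCCA. Both genes were led by small intestine, with and without the exact letters. Hnf4a itself was at 61.5 and 60.3 in liver, 58.7 and 79.3 in small intestine, 93.8 and 62.2 in kidney, and 0.764 and 0.35 in lung.

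Subfamily 2d and Cyp2e1 made up a large part of the liver sum. Cyp2e1, which oxidizes ethanol and small solvents, had the highest level of any member, at 2138 and 1658 in liver, 428 and 347 in kidney, 14.8 and 8.65 in lung, and 3.07 and 2.09 in small intestine. The tissues did not overlap, and the log2 difference was 6.20 in liver (standard error 0.22, limma adjusted p = 4.88e-07) and 3.15 in kidney. Cyp2d9, a steroid hydroxylase that predominates in male liver, was at 842 and 833 in liver and 77.8 and 89.1 in kidney. On chromosome 15, 6 of the 8 Cyp2d genes between 82370527 and 82794294 were led by liver. The exception among those tested was Cyp2d12, at 57.7 and 31.7 in kidney and 3.25 and 3.66 in liver, a log2 difference in kidney of 4.67 (standard error 0.22, limma adjusted p = 4.03e-06). Cyp2d26 was spread more widely, at 501 and 453 in liver, 98.7 and 76.2 in kidney, 248 and 209.5 in small intestine, and at most 2.49 in lung. It was led by liver by a contrast of 1.06 over small intestine, and no longer led when liver 1 or small intestine 2 was left out. Cyp2d22 was the most widespread of the subfamily, at 93.1 and 76.7 in liver, 26.6 and 30.3 in lung, 19.1 and 20.5 in small intestine, and 8.23 and 3.94 in kidney.

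The Cyp2j genes, whose enzymes epoxidize arachidonic acid, included some of the highest P450 genes of kidney. Of the 8 genes on chromosome 4 from 96027534 to 96664154, 3 were led by kidney, 1 by small intestine, 1 by none and 0 by liver. The remaining 3 were not tested, and 3.68%, 5.95% and 3.74% of all genes tested were led by kidney, small intestine and liver. Cyp2j5 was at 482 and 423 in kidney, 172 and 172 in liver, and at most 1.75 in lung and small intestine. Its log2 difference in kidney was 5.79 (standard error 0.19, limma adjusted p = 8.39e-07) and its contrast with liver was 1.39, which did not remain a call after median-of-ratios scaling. Cyp2j11 was at 71.5 and 63.4 in kidney and at most 0.16 in the other 6 libraries, and Cyp2j13 at 49.3 and 35.8 against at most 0.175. These genes were found in kidney nearly alone. In contrast, Cyp2j6 was at 78.02 and 52.1 in small intestine and between 4.37 and 16.8 elsewhere, and Cyp2j9 was between 0.779 and 2.67 in every library.

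Family 3, which holds the main drug-oxidizing enzymes of liver and gut, was high in these organs and nearly absent from kidney and lung. Cyp3a11, the most abundant of its family, was at 1262 and 1334 in liver, 189.6 and 434 in small intestine, 3.62 and 1.34 in lung, and 0.549 and 1.99 in kidney. Its log2 difference was 6.68 in liver (standard error 0.40, limma adjusted p = 7.07e-06) and 3.78 in small intestine. Liver exceeded small intestine by 2.17 (limma adjusted p = 0.0064), a contrast that was not called without small intestine 1. Cyp3a25 was at 410.4 and 398 in liver, with 173 and 322 in small intestine, and did not differ by a call between them (contrast 0.77, limma adjusted p = 0.113). After median-of-ratios scaling Cyp3a25 was led by liver. Cyp3a13 had the reverse order, at 326 and 392 in small intestine, 44.0 and 41.0 in liver, 2.11 and 1.44 in lung, and 0.237 and 0.684 in kidney. It was the highest member in small intestine, with a log2 difference of 6.01 (standard error 0.17, limma adjusted p = 2.89e-07). It also stands apart on chromosome 5, from 137892932 to 137921619, while the other 6 genes of the family lie from 145345279 to 146113287. Cyp3a59, at 26.3 and 23.9 in liver, shares 43.5% of its 31-base words with Cyp3a25. The remaining members of family 3, Cyp3a16, Cyp3a44 and Cyp3a57, were at most 0.762 in any library.

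With the values as deposited, family 4, like family 2, held members led by each of the 4 tissues. Cyp4b1, which hydroxylates fatty acids and activates furans, was at 1100.2 and 1149 in kidney, 244 and 311 in lung, 37.2 and 55.3 in small intestine, and 9.04 and 8.37 in liver. It was the highest member in kidney and the second in lung, and the 4 tissues did not overlap. The log2 difference in kidney was 4.49 (standard error 0.17, limma adjusted p = 1.28e-06). In lung it was 1.79 as deposited and 0.63 after median-of-ratios scaling, where it was not called (limma adjusted p = 0.0594).

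The Cyp4a enzymes hydroxylate the omega end of fatty acids and are target genes of PPAR alpha. Cyp4a10 was at 365 and 109 in liver and 193 and 123 in kidney, so that these tissues overlapped (contrast of kidney with liver -0.37, limma adjusted p = 0.655), with 8.46 and 4.73 in small intestine and 1.07 and 0.458 in lung. Cyp4a14 was at 178 and 53.8 in liver and 21.8 and 7.82 in kidney, and was led by liver. Cyp4a31 was the reverse, at 135 and 89.1 in kidney and 11.4 and 3.47 in liver, with a log2 difference in kidney of 5.70 (standard error 0.36, limma adjusted p = 1.47e-05). The lower call of Cyp4a10 in small intestine, with a log2 difference of -2.36 (limma adjusted p = 0.0031), was -1.999 without small intestine 2 (limma adjusted p = 0.0509), and the call of Cyp4a14 as higher in kidney, with a log2 difference of 1.51 (limma adjusted p = 0.0289), was 0.83 without kidney 1 (limma adjusted p = 0.246) and missed the threshold when any single lung or small intestine library was left out. Cyp4a32 was at 27.6 and 17.7 in liver and 4.16 and 1.65 in kidney, and 62.8% of its 31-base words occur in other genes. In a list of 6 omega-hydroxylase genes, of which Cyp4a12a and Cyp4a12b fall outside the rule for members, 5 were called higher in liver, 4 higher in kidney, 6 lower in lung and 6 lower in small intestine, beside 6.56%, 8.65%, 8.26% and 11.3% of all genes.

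**Figure D5:**
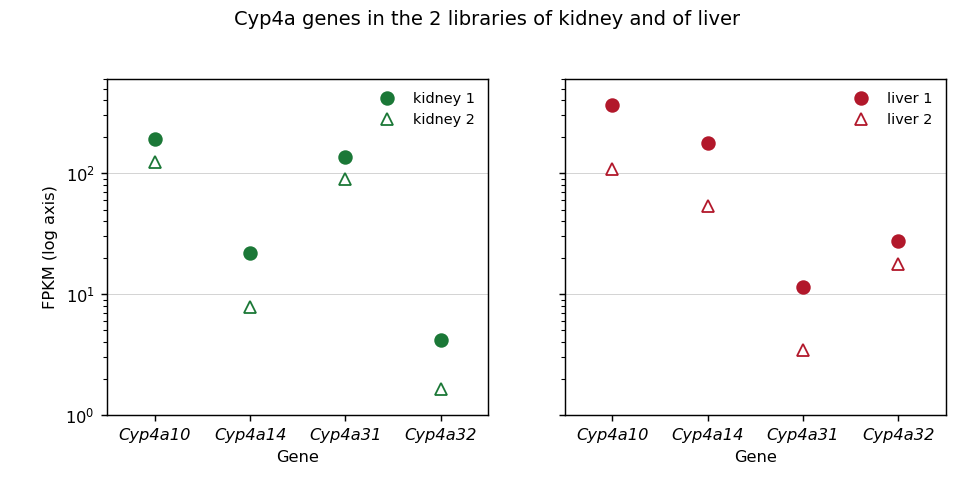
FPKM on a log axis (vertical) of 4 Cyp4a genes (horizontal) in the 2 kidney libraries (left) and the 2 liver libraries (right), with filled circles for library 1 and open triangles for library 2. Library 1 is higher for all 4 genes in both tissues, by 3.36 times for Cyp4a10 in liver.

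Some Cyp4a genes differed between the libraries of the same tissue. Cyp4a10, Cyp4a14 and Cyp4a31 were 3.36, 3.30 and 3.29 times higher in liver 1 than in liver 2, and among the 46 members with a mean of at least 5 in liver the libraries differed by a median log2 value, without sign, of 0.150, beside 0.156 over 4222 genes. Of these 46 members, 5 differed by more than 2 times (10.9%, beside 1.18% of those 4222 genes), and the other 2 were Cyp7a1 and Cyp2a5. On the scale of log2(FPKM + 1), the differences of library 1 from library 2 were 1.74 for Cyp4a10, 1.70 for Cyp4a14 and 1.48 for Cyp4a31 in liver, and 0.65, 1.37 and 0.60 in kidney. A list of other target genes of PPAR alpha was made after these values were seen. In liver their differences were 0.56 for Acot1, 0.45 for Ehhadh, 0.59 for Angptl4, 0.27 for Vnn1, -0.12 for Cpt1a, -0.04 for Pdk4 and -0.02 for Plin2, beside 0.61 for Cyp4a32. In kidney they were 0.16 for Acot1, 0.42 for Ehhadh, 0.90 for Angptl4, 0.47 for Vnn1, 0.62 for Cpt1a, 0.67 for Pdk4 and 0.12 for Plin2, a range that includes Cyp4a10 and Cyp4a31. The kidney libraries differed more widely in general, by a median without sign of 0.369 over 21 members and 0.281 over 5356 genes with a mean of at least 5. The median-of-ratios size factors, 1.03 in kidney 1 and 0.719 in kidney 2, also place kidney 1 higher over genes in general. Fgf21 was at most 0.279 in every library. Large differences in the other direction were seen for Cyp7a1 in liver, at 2.98 and 7.87, and Cyp3a11 in small intestine. The 2 libraries per tissue give no test of such differences, and their source was not tested.

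The Cyp4f genes, whose enzymes inactivate leukotrienes and hydroxylate long fatty acids, were divided between small intestine, liver and lung. On chromosome 17 from 32452723 to 32947402 lie 8 of them. Cyp4f14 was at 301 and 387 in small intestine and 96.0 and 109 in liver, with at most 1.23 in kidney and lung. Cyp4f40 was at 28.6 and 36.9 and Cyp4f16 at 58.2 and 55.9 in small intestine, and these 3 were led by it, Cyp4f14 by none after median-of-ratios scaling. Cyp4f15 was at 50.2 and 41.6 in liver and at most 3.31 elsewhere. Cyp4f39, a ceramide-related hydroxylase of skin, was at 1.15 and 2.21 in lung and at most 0.242 elsewhere, and its call in lung was lost without lung 2. Cyp4f18, on chromosome 8, acts on leukotriene B4 in neutrophils and was at 6.46 and 10.1 in lung and 1.90 and 2.33 in small intestine. Cyp4v3 was at 73.2 and 92.04 in small intestine and 55.0 and 60.9 in liver, with no call between them (contrast of liver with small intestine -0.50, limma adjusted p = 0.0325).

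Among the genes of families 5 and above, 4 of the 5 tested in a list of 6 genes of bile acid and oxysterol metabolism were called higher in liver, beside 6.56% of all genes and 41 of the 68 members tested. Cyp7a1, the rate-limiting enzyme of the classical pathway, was at 2.98 and 7.87 in liver and listed at 0 in the other 6 libraries. Cyp8b1, which directs synthesis to cholic acid, was at 93.4 and 152 in liver and at most 1.32 elsewhere, with a log2 difference of 6.44 (standard error 0.20, limma adjusted p = 2.27e-07). Cyp27a1, the mitochondrial sterol hydroxylase that opens the alternative pathway, was at 247 and 208 in liver and between 14.7 and 64.0 in the other tissues. Cyp7a1 was thus low beside the enzymes around it, at a level per length below both Cyp8b1 and Cyp27a1 in each liver library. Cyp7b1, an oxysterol hydroxylase of that pathway, was at 84.4 and 114 in liver and 58.9 and 67.3 in kidney, and the contrast of kidney with liver was -0.63 (limma adjusted p = 0.0618). After median-of-ratios scaling Cyp7b1 was led by liver. Cyp39a1, another oxysterol hydroxylase, was at 7.65 and 8.30 in lung and 6.68 and 4.73 in liver, and was called higher in lung than in the mean of the others by 1.31, or by 0.30 after median-of-ratios scaling, where it was not called. Under that scaling Cyp39a1 was instead called higher in liver, by 1.63 (limma adjusted p = 0.000195), though it was led by no tissue. Cyp46a1, the cholesterol hydroxylase of neurons, was at most 0.514 and was not tested.

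The vitamin D enzymes lay apart by step. Cyp2r1, which performs the first hydroxylation, was at 5.21 and 5.17 in liver and between 0.353 and 0.656 in the other tissues. Cyp27b1, which makes the active hormone, was highest in kidney, at 1.83 and 0.539, and did not pass the filter. Cyp24a1, which degrades the hormone, was at 11.3 and 8.41 in kidney and at most 0.0816 elsewhere, with a log2 difference of 3.39 (standard error 0.13, limma adjusted p = 1.33e-06). The highest values of the later steps were thus in kidney, and the receptor Vdr was at 40.0 and 25.5 there and 63.8 and 77.6 in small intestine.

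Of the enzymes that break down retinoic acid, Cyp26a1 was at 11.5 and 11.9 in liver and at most 0.395 elsewhere (log2 difference 3.47, standard error 0.14, limma adjusted p = 9.4e-07). Cyp26b1 varied between the libraries of a tissue, at 6.54 and 2.32 in lung, 3.81 and 0.851 in liver, 1.87 and 0.14 in kidney, and 1.58 and 1.82 in small intestine. Its log2 difference in lung of 1.04 was not called (limma adjusted p = 0.0853), but at 1.26 it was called when kidney 1 or liver 1 was left out (limma adjusted p = 0.0474 and 0.0464). It was also called with the replicate number as a block (limma adjusted p = 0.0196) and, at 1.28, with the same sum in each library (limma adjusted p = 0.0374). Cyp51, the sterol demethylase of cholesterol synthesis, was found in every library, at 39.4 and 31.5 in kidney, 13.9 and 11.6 in liver, 5.87 and 6.83 in lung, and 6.15 and 6.68 in small intestine. It was led by kidney, but by no tissue after median-of-ratios scaling. Cyp20a1, a P450 without an established substrate, was at 12.3 and 15.6 in lung and between 2.58 and 5.22 elsewhere, and its log2 difference in lung of 1.77 was 0.73 after median-of-ratios scaling, below the size required.

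The 6 enzymes of steroid hormone synthesis, which act in adrenal cortex and gonads, were nearly absent. Cyp11b1, Cyp11b2 and Cyp19a1 were listed at 0 in all 8 libraries, as was Cyp4a29. Cyp21a1 reached 0.153 and Cyp11a1 0.151 in their highest library. The exception was Cyp17a1, at 2.07 and 1.52 in liver and at most 0.489 elsewhere, with a log2 difference of 1.30 (standard error 0.11, limma adjusted p = 4.38e-05). Without liver 1 or small intestine 1, Cyp17a1 was led by no tissue. Of the adrenal markers, Hsd3b1, Mc2r and Nr5a1 were at most 0.0504 in every library and Star was between 0.253 and 1.92, while Akr1b7 was at 29.5 and 50.3 in small intestine and Mrap at 15.5 and 19.1 in liver.

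The 27 members that were not tested comprise 13 of family 2, 3 of family 3, 3 of family 4 and 8 of families 5 and above. Over all 95, 86 had 3 or more reads in at least 1 library and 9 had fewer than 3 in every library, while 35 had 3 or more in all 8. Among genes known to be higher in female than in male mouse liver, Cyp2a4 was at 4.33 and 2.06 in liver beside its higher level in kidney. Cyp2b9 was at 0.814 and 0.361, Cyp2b13 was at 0, Cyp3a16 was at 0.442 and 0.448, and Cyp3a44 was at 0.667 and 0.543 in liver. Cyp2c40 and Cyp2c69 of the same list were at 42.2 and 23.6 and at 18.5 and 10.1 in liver, and are among the genes that share most of their sequence with others. Of the members known to be higher in males, Cyp2d9 and Cyp7b1 had their highest level in liver. Cyp2f2 had it in lung with the values as deposited, but in liver after median-of-ratios scaling.

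A mean FPKM of 1 or more was reached in all 4 tissues by 13 members, in 3 by 14, in 2 by 18, in 1 by 24 and in none by 26. Most members lie in clusters. Members within 500 kb of each other formed 10 stretches with 71 of the 95 genes, and 7 stretches held 5 or more. Over all 95 members, 49 shared over 10% of their 31-base words with all other genes pooled, 9 shared over 50%, and 17 shared none.

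The partners of the P450 enzymes were measured in the same libraries. Por, the reductase that supplies electrons to the enzymes of the endoplasmic reticulum, was between 29.0 and 66.1 in all 8 libraries, and the liver libraries, at 66.1 and 29.0, spanned those of the other tissues. Of 8 genes for electron transfer and haem supply, 1 was called higher in liver, 2 in small intestine, 1 in lung and 0 in kidney, beside 6.56%, 13.7%, 40.7% and 8.65% of all genes. In the other direction, 2 were called lower in kidney and 2 in lung, beside 16.1% and 8.26% of all genes, and 0 in liver and small intestine. The gene called in liver was Pgrmc1, a haem-binding partner, at 489 and 435 against at most 162 elsewhere. Of 9 receptors that control P450 genes, 6 were called higher in liver, 3 in kidney, 3 in small intestine and 2 in lung, beside 6.56%, 8.65%, 13.7% and 40.7% of all genes. In the other direction, 5 were called lower in lung, 2 in kidney, 1 in liver and 0 in small intestine, beside 8.26%, 16.1%, 32.7% and 11.3% of all genes. Nr1i2, the receptor for foreign compounds that regulates Cyp3a11, was at 30.5 and 44.9 in small intestine, 20.8 and 14.9 in liver, and at most 1.86 in kidney and lung. Nr1i3, which regulates Cyp2b10, was at 1.51 and 1.47 in liver, 0.992 and 0.84 in small intestine, and listed at 0 in both lung and both kidney libraries. Of these last tissues, Cyp2b10 was at 136 and 125 in lung and at 0.265 and 0.465 in kidney. Ahr, which regulates Cyp1a1, was at 6.48 and 9.17 in lung, 2.96 and 2.02 in small intestine, 3.82 and 3.88 in liver, and 0.666 and 0.319 in kidney. The enzyme genes Tbxas1 and Ptgis are P450s under other symbols, and Ptgis, the prostacyclin synthase, was at 29.5 and 29.7 in lung and at most 0.908 elsewhere.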

How the data were processed

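The authors selected reads by sample index with bbduk, mapped them to the mouse genome (Ensembl, GRCm38) with STAR (version 2.5.3a in the submitters' processing notes) and deposited FPKM values computed by DESeq2 (function fpkm). The counting program, the use of strand and the handling of multiply mapped reads are not given in the sources used here. Although FPKM accounts for exon length and library size, abundant transcripts depress all other values of their library.

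Members were chosen by symbol, and the members and lists were chosen with earlier results of these data known. Symbols were matched to GENCODE M21 (99.3% to a single gene), which gave coordinates and exon lengths. Depth was recovered from the spacing of low values, and between 94.5% and 96.1% of values up to 50 reads then came out whole, within a tolerance of 0.02 reads. Values were tested as log2(FPKM + 1) in R 4.3.3 with limma 3.58.1 (lmFit, eBayes with a trend), all 8 libraries in a single fit, on genes with an FPKM of at least 1 in at least 2 libraries, with Benjamini-Hochberg adjustment. A pseudocount of 1 understates the differences of low genes. The limma step was tested on simulated data, where its share of false calls was well above the nominal level, also among calls past the size threshold, so that adjusted p-values near the threshold are less certain than printed. The libraries of a tissue come from separate mice, each of which gave all 4 tissues by the study's methods. Named genes were the 5 highest of each tissue, the 6 called with the largest log2 difference among those with a mean of at least 5, the members at 1 or more in every tissue, those that varied most between libraries, and the function lists. Other genes named for their place in a stretch or a subfamily were chosen after their values were seen. Shared sequence was counted over 31-base words of the annotated transcripts, and promoters came from RefSeq. Python 3.11.15, numpy 2.4.6, pandas 2.3.3 and matplotlib 3.10.9 were used. Some other target genes of PPAR alpha are not reported here.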

Additional observations from a re-analysis of the deposited data

Results flagged for a closer look

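Symbols of the P450 family that fall outside the rule for members had 3 or more reads in a library for 4 of the 5 symbols with a letter after the gene number and for 10 of the 21 pseudogene symbols. The 5 of them that reached an FPKM of 5 are given here. None of these symbols is a member, and in the report only Cyp4a12a and Cyp4a12b enter a count, that of the 6 omega-hydroxylase genes. Cyp4a12a and Cyp4a12b, a near-identical pair of omega-hydroxylase genes whose symbols end in a letter, reached an FPKM of 150.3 and 68.9 in liver 1. The pseudogene symbols Cyp2d37-ps and Cyp2d41-ps reached 65.3 in liver 2 and 8.71 in liver 1, and Cyp4b1-ps2 reached 9.02 in kidney 2. Whether these are transcripts of the pseudogenes or reads of related genes was not tested. Of the 21 pseudogene symbols, 8 were listed at 0 in all libraries. Samples of 2 per tissue are too few for a test of single outlying libraries.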

How the results depend on the processing

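With 2 libraries per tissue, the spread is shared over all tissues, and depth limits genes below an FPKM of 0.140 to 0.327 per kb of exons. Other settings changed the pseudocount, the filter, the scaling, the trend, the block and the libraries included. Of the counts of members called higher, lower or led, 178 of 180 values under these settings stayed within 1.5 times the count given. The exceptions were both median-of-ratios scaling in lung, where 5 members were higher in place of 9 and 0 were led in place of 4. For the 24 log2 differences that are the 6 largest called in each tissue, 359 of 360 values kept their direction and side of the threshold, and Cyp4b1 in lung fell to 0.63. The summed FPKM of all members in a tissue also depended on the scaling. Under the other scalings, 5 of these sums lay at least the SD between libraries away from the sum as deposited. Calls outside those 24 changed for Cyp4a14 in kidney, for Cyp20a1, Cyp39a1 and Cyp26b1 in lung and for Cyp4a10 in small intestine, as given with those genes, and for other members. With 1 library left out at a time, the members called higher and lower numbered 13 to 14 and 33 to 37 in kidney, 8 to 10 and 44 to 45 in lung, 41 to 42 and 12 to 13 in liver, and 16 to 17 and 31 to 33 in small intestine, and those led 9, 3 to 4, 31 to 33 and 8 to 9 in the same order. Each mouse gave all 4 tissues, but the replicate numbers are not stated to mark the mouse. Deviations of same-numbered libraries correlated at -0.217 to 0.053 between tissues, which does not show which libraries share an animal. With the replicate number as a block, 10 members were higher in lung in place of 9, by the addition of Cyp26b1, and no other count changed.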
